A study of Homo sapiens with 6 samples.

Results

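The loci described here are the chromosomal neighbourhoods of the MYC family genes MYCN, MYC and MYCL. Their members are all ATAC-seq peaks that overlap 1 of 3 windows given in megabases of hg19. These are chromosome 2 from 15.6 to 16.6 Mb for MYCN, chromosome 8 from 128.2 to 129.3 Mb for MYC, and chromosome 1 from 40.311 to 40.418 Mb for MYCL. Peaks of the 6 libraries that shared at least 1 bp were merged, which gave 197 of 149765 regions in the 3 windows. The MYCN window held 116 of them, the MYC window 71 and the MYCL window 10. No measured value entered the rule for these windows, but they were chosen with earlier results of these data known. The cells were H1155, a human lung carcinoma line, and open chromatin was marked by a transposase that inserts sequencing adapters, in the Omni-ATAC protocol. Both groups were biological triplicates, per the labels. The TA libraries came from H1155 cells that express a chimera, and the labels describe neither TA nor the chimera further. The control libraries came from H1155 cells with the genotype control, with no more detail given.

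MYC family proteins are transcription factors of the basic helix-loop-helix leucine zipper class that pair with MAX and bind E-box sequences at genes for growth, ribosome production and metabolism. MYC is widely expressed in dividing cells, whereas MYCN is best known from neural and neuroendocrine tissue and from neuroblastoma, and MYCL was first described in small cell lung carcinoma. Extra gene copies of each of them occur in subsets of lung carcinomas.

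The promoters of MYCN and MYCL are shown because the regions at the starts of these genes carry the comparison of the loci below. They run from 250 bases before to 50 bases after the annotated start, come from RefSeq on GRCh38.p14, and are written 5′ to 3′ along the gene with capitals on each CG dinucleotide. A sequence was matched and printed for 2 of the 3 members. MYCN lies on the plus strand at chr2:15940300-15940599, and MYCL on the minus strand at chr1:39901868-39902167.
MYCN: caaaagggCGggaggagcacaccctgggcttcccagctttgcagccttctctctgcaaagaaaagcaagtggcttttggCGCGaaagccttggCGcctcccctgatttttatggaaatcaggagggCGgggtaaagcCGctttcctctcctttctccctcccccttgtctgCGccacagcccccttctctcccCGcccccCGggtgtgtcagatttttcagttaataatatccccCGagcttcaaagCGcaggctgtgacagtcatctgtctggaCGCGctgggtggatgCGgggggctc
MYCL: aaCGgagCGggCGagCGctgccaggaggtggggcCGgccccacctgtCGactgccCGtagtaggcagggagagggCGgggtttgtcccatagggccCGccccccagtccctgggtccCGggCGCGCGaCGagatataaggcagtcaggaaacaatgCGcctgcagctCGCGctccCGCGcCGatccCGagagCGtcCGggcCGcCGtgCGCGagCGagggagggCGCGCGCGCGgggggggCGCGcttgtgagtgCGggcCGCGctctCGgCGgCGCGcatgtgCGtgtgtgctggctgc
The MYCN promoter had 58.7% G and C and 14 CG dinucleotides, both equal to the median of 35116 promoters. The MYCL promoter had 74.7% G and C and 43 CG dinucleotides, and 95.02% of promoters had fewer. Neither window of 300 bases held CACGTG (the E-box, in 7.26% of promoters), GGAATG (a TEAD motif, in 14.0%) or TGANTCA (an AP-1 motif, in 7.71%) on either strand.

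Each library had its own list of peaks, with 94484, 98984 and 99654 peaks on chromosomes 1 to 22 and X in TA libraries 1, 2 and 3, against 101267, 85730 and 109321 in control libraries 1, 2 and 3. The deposited fold of a peak is the height of the signal at its summit over a local background that MACS2 estimates around the peak. Both parts of that ratio were recovered from the fold and the deposited −log10 p, as a whole number of overlapping fragments at the summit (the summit pileup) and as an expected number (the local background). The sources do not state whether MACS2 piled up reads or fragments. The lowest local background of a library, called its floor here, was 3.21, 2.74 and 3.77 in TA libraries, against 2.53, 2.94 and 3.05 in control libraries. The floor, in place of a read total, was the measure of depth in these files. In bulk ATAC-seq, fewer cells with an open region and less opening per cell cannot be told apart.

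The windows and the deposited coordinates were set against each other before any gene was named. The labels name GRCh38, and gene ends of the GRCh38.p14 table lay within 500 bp of a summit in 3.33% of cases around MYCN, 7.69% around MYC and 6.98% to 8.72% around MYCL. After 1 constant shift per window, of 140.3 kb, 1011.9 kb and 465.8 kb, these shares were 23.3% to 26.7% of 30 ends, 26.9% to 38.5% of 26 ends and 39.5% to 43.0% of 172 ends over the 6 libraries. The next best shifts reached 22.8%, 23.7% and 14.6% on average, so the placement was clear at MYCL and only just the best at MYCN. Positions below are those of the deposited lists, and gene names rest on these shifts. The labelled cell type was not checked against marker genes, because no annotation on the coordinates of the lists was used here.

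No region of the 3 windows was open in all TA libraries and in no control library, and 2 regions showed the reverse. Over the series, 930 of 149765 regions were called in 3 of 3 TA and 0 of 3 control libraries (0.621%), and 1197 showed the reverse (0.799%). The MYCN window held 0 and 1 such regions among 116, the MYC window 0 and 1 among 71, and the MYCL window 0 and 0 among 10. These counts are too small to be set apart from the shares over the series.

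The region lost in TA libraries in the MYCN window was chr2:16503175-16503503, with summit pileups of 37, 26 and 42 in control libraries 1, 2 and 3. Its folds there were 4.22, 3.17 and 4.61 and its −log10 q values 11.5, 5.34 and 14.5. The region lost in the MYC window was chr8:128956847-128957360, with pileups of 16, 19 and 25, folds of 3.43, 4.05 and 5.37 and −log10 q of 4.03, 5.89 and 10.8 in control libraries. Both lay below the window's median pileup in each control library, and signal under the calling threshold may have been present in TA libraries. Under other ways of joining or filtering peaks the MYC region was no longer counted as lost.

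The MYC family windows shared a similar part of their regions among all 6 libraries. In the MYCN window 39 of 116 regions (33.6%) had a peak in every library, in the MYC window 26 of 71 (36.6%) and in the MYCL window 5 of 10, beside 37.8% over the series. Regions seen in 1 library only made up 39.7% in the MYCN window, 28.2% in the MYC window and 2 of 10 in the MYCL window, beside 29.7% over the series. The shared regions had a median width of 876 bp at MYCN, 829.5 bp at MYC and 881 bp at MYCL, beside 739 bp over the series.

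The number of peaks in each window overlapped between TA and control libraries. The MYCN window had 68, 69 and 66 peaks in TA libraries 1, 2 and 3, against 75, 59 and 68 in control libraries. The MYC window had 45, 47 and 45 peaks in TA libraries, against 47, 39 and 51 in control libraries. The control libraries with the fewest and the most peaks in the MYC window were also those with the shortest and the longest lists of the series. The MYCL window had 7, 7 and 10 peaks in TA libraries, against 8, 6 and 9 in control libraries.

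Scaled to list length, the MYCN window held 6.93 ± 0.289 of every 10000 peaks in TA libraries and 6.84 ± 0.594 in control libraries (SD, n = 3 each, exact two-sided permutation p = 0.9). The MYC window held 4.68 ± 0.139 of every 10000 peaks in TA libraries and 4.62 ± 0.0612 in control libraries (SD, n = 3 each, exact two-sided permutation p = 0.6). The MYCL window held 0.817 ± 0.162 in TA libraries and 0.771 ± 0.0638 in control libraries (SD, n = 3 each, exact two-sided permutation p = 0.8). None of the differences was larger than the spread between replicates. Groups of 3 against 3 cannot give a two-sided p below 0.1 in this test, and the lowest value was 0.9 after Benjamini-Hochberg adjustment over the 12 window comparisons of TA with control.

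Per length, the MYCN window was denser in peaks than the MYC window. It had 67.7 ± 1.53 peaks per Mb in TA libraries and 67.3 ± 8.02 in control libraries, whereas the MYC window had 41.5 ± 1.05 in TA libraries and 41.5 ± 5.55 in control libraries (SD, n = 3 each). The much shorter MYCL window had 74.8 ± 16.2 peaks per Mb in TA libraries and 71.7 ± 14.3 in control libraries (SD, n = 3 each). Among tiles of the same length with enough peaks, 79.4% had fewer peaks than the MYCN window, 47.6% fewer than the MYC window and 36.0% fewer than the MYCL window. Peak density at MYCN was thus above that of most of these tiles, and at MYC and MYCL near the middle or below. Tiles with few peaks were left out, so these are ranks among peak-rich tiles and not over the genome.

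Peaks covered 3.805%, 3.61% and 3.68% of the MYCN window in TA libraries, against 3.93%, 3.26% and 4.13% in control libraries (exact permutation p = 0.9, n = 3 each). They covered 1.71%, 1.89% and 1.80% of the MYC window in TA libraries, against 2.03%, 1.52% and 2.32% in control libraries (exact permutation p = 0.6, n = 3 each). They covered 3.46%, 3.26% and 4.69% of the MYCL window in TA libraries, against 4.06%, 3.54% and 4.97% in control libraries (exact permutation p = 0.5, n = 3 each). In the MYCN and MYC windows the TA libraries lay within the range of the control libraries, and in the MYCL window the ranges overlapped.

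**Figure D1:**
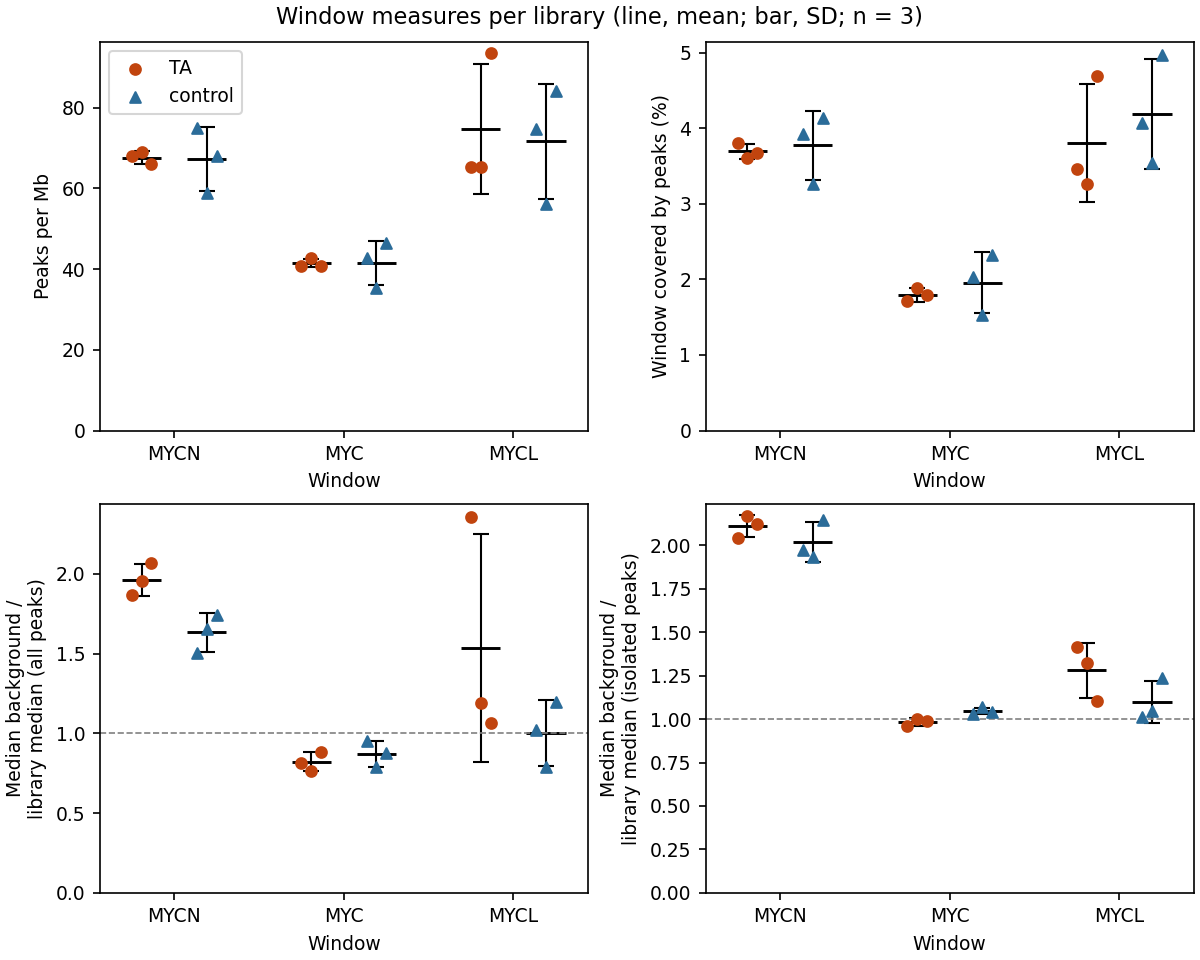
Peaks per Mb, percent of the window covered by peaks, and the median local background over the library's median, for all peaks and for isolated peaks, by window. Points are libraries (circles TA, triangles control), lines are means and bars SD of 3 libraries. Density and coverage overlap between groups in each window, and the MYCN background lies above 1 in all 6 libraries in both lower panels.

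The local background tended to be higher at MYCN than at the other loci. The median local background of peaks in the MYCN window was 1.87, 1.96 and 2.07 times the library's median in TA libraries, against 1.504, 1.65 and 1.74 times in control libraries. Over the 6 libraries the ratio was 1.79-fold on a log scale and above 1 in 6 of 6, with an exact sign-flip p of 0.03125, the smallest that 6 libraries can give, and 0.0625 after adjustment over 6 tests. The MYC window lay below its library's median in all 6 libraries, at 0.814, 0.767 and 0.885 times in TA libraries, against 0.951, 0.788 and 0.877 times in control libraries (exact sign-flip p = 0.03125, adjusted 0.0625). The MYCL window lay at 2.36, 1.19 and 1.06 times in TA libraries, against 1.02, 0.786 and 1.20 times in control libraries, and was above 1 in 5 of 6 libraries (exact sign-flip p = 0.34375). MYCN was thus above MYC in 6 of 6 libraries and above MYCL in 5 of 6, and MYCL was above MYC in 5 of 6. MYCL varied, with its highest value in TA library 1, above that of MYCN, where 7 peaks gave the median. The sign flips test whether a ratio recurs over 6 libraries of 1 cell line. They do not test whether a locus is unusual in the genome.

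Set against each other within a library, the MYCN window had a median background 2.12 times that of the MYC window, higher in 6 of 6 libraries (exact sign-flip p = 0.03125, adjusted 0.0625). It was 1.501 times that of the MYCL window, higher in 5 of 6 libraries (exact sign-flip p = 0.0625, adjusted 0.075). The MYCL window was 1.41 times the MYC window, higher in 5 of 6 libraries (exact sign-flip p = 0.0625, adjusted 0.075). No adjusted value of this family passed 0.05.

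Where MACS2 has no separate control sample, a peak's own reads and those of its neighbours enter the background around it, and the sources do not state whether one was used. To leave out near neighbours, the same ratio was taken over isolated peaks, those with no other peak within 5 kb. The own reads of an isolated peak can still enter its background, and their part was not tested. On these the MYCN window stood at 2.04, 2.17 and 2.13 times the library's isolated peaks in TA libraries, against 1.97, 1.93 and 2.15 times in control libraries, from 27 to 35 peaks each. The mean was 2.06-fold and above 1 in 6 of 6 libraries (exact sign-flip p = 0.03125, adjusted 0.046875). In fragments the median background of isolated MYCN peaks was 7.68, 6.77 and 9.18 in TA libraries, against 5.72, 7.04 and 7.13 in control libraries. That was below the median of all MYCN peaks in each library, which was 9.81, 8.88 and 12.57 in TA libraries, against 6.74, 8.42 and 9.1 in control libraries. Isolated peaks of the whole library were lower still, at 3.12 to 4.32 fragments in TA libraries and 2.9 to 3.64 in control libraries. Isolated peaks of the MYC window lay at 0.960, 1.00 and 0.988 times in TA libraries, against 1.03, 1.07 and 1.04 times in control libraries (1.014-fold over all 6, exact sign-flip p = 0.40625). Those of the MYCL window lay at 1.41, 1.32 and 1.11 times in TA libraries, against 1.014, 1.04 and 1.24 times in control libraries, from 3 to 6 peaks per library. That was 1.18-fold and above 1 in 6 of 6 (exact sign-flip p = 0.03125, adjusted 0.046875). Tiles of the MYCL window's length had a median isolated-peak ratio of 1.21, so a value above 1 was usual for so short a stretch. On isolated peaks MYCN exceeded MYC by 2.03-fold and MYCL by 1.75-fold, each in 6 of 6 libraries (exact sign-flip p = 0.03125, adjusted 0.046875).

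The low end of the background was raised at MYCN as well. The 10th percentile of the background over peaks of the MYCN window was 1.60, 1.97 and 1.97 times the floor in TA libraries, against 1.67, 1.44 and 1.60 times in control libraries. In the MYC window it was equal to the floor in all 6 libraries, and in the MYCL window 1.56, 1.38 and 1.02 times the floor in TA libraries, against 1.10, 1.15 and 1.16 times in control libraries. MYCN exceeded MYC by 1.699-fold and MYCL by 1.397-fold, and MYCL exceeded MYC by 1.22-fold, each in 6 of 6 libraries (exact sign-flip p = 0.03125, also after adjustment over these 3 tests). Peaks at the floor itself made up 0% of the MYCN peaks in all TA libraries, against 1.33%, 0% and 4.41% in control libraries. In the MYC window peaks at the floor made up 20.0% to 27.7% in TA libraries and 19.6% to 23.1% in control libraries, close to the 20.5% to 22.3% of all peaks in TA libraries and 16.7% to 23.3% in control libraries.

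Backgrounds above 8 floors were found at MYCN and not at the other loci. The MYCN window had 12, 13 and 11 such peaks in TA libraries, against 12, 10 and 12 in control libraries, or 16% to 18.8% of its peaks. Of all peaks of the series, 0.457% to 0.889% lay above 8 floors in TA libraries and 0.376% to 2.03% in control libraries. The MYC and MYCL windows had 0 in every library, among 39 to 51 and 6 to 10 peaks. With so few peaks, 0 is near the share of the series and does not set these windows apart from it. The cut of 8 floors was not among the planned measures. Most of the MYCN peaks above 8 floors lay in groups a few kb apart with nearly the same background, so they are not separate observations. In control library 1, for example, peaks at -0.0155, 3.15 and 3.70 kb from the start region stood on 15.2, 15.5 and 15.4 floors. The highest background reached 11.7, 13.8 and 11.04 floors at MYCN in TA libraries, against 15.5, 11.3 and 16.7 in control libraries. It reached 3.59 to 3.996 floors at MYC in TA libraries and 3.32 to 4.87 in control libraries, and 4.901 to 6.04 floors at MYCL in TA libraries and 3.88 to 6.52 in control libraries.

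**Figure D2:**
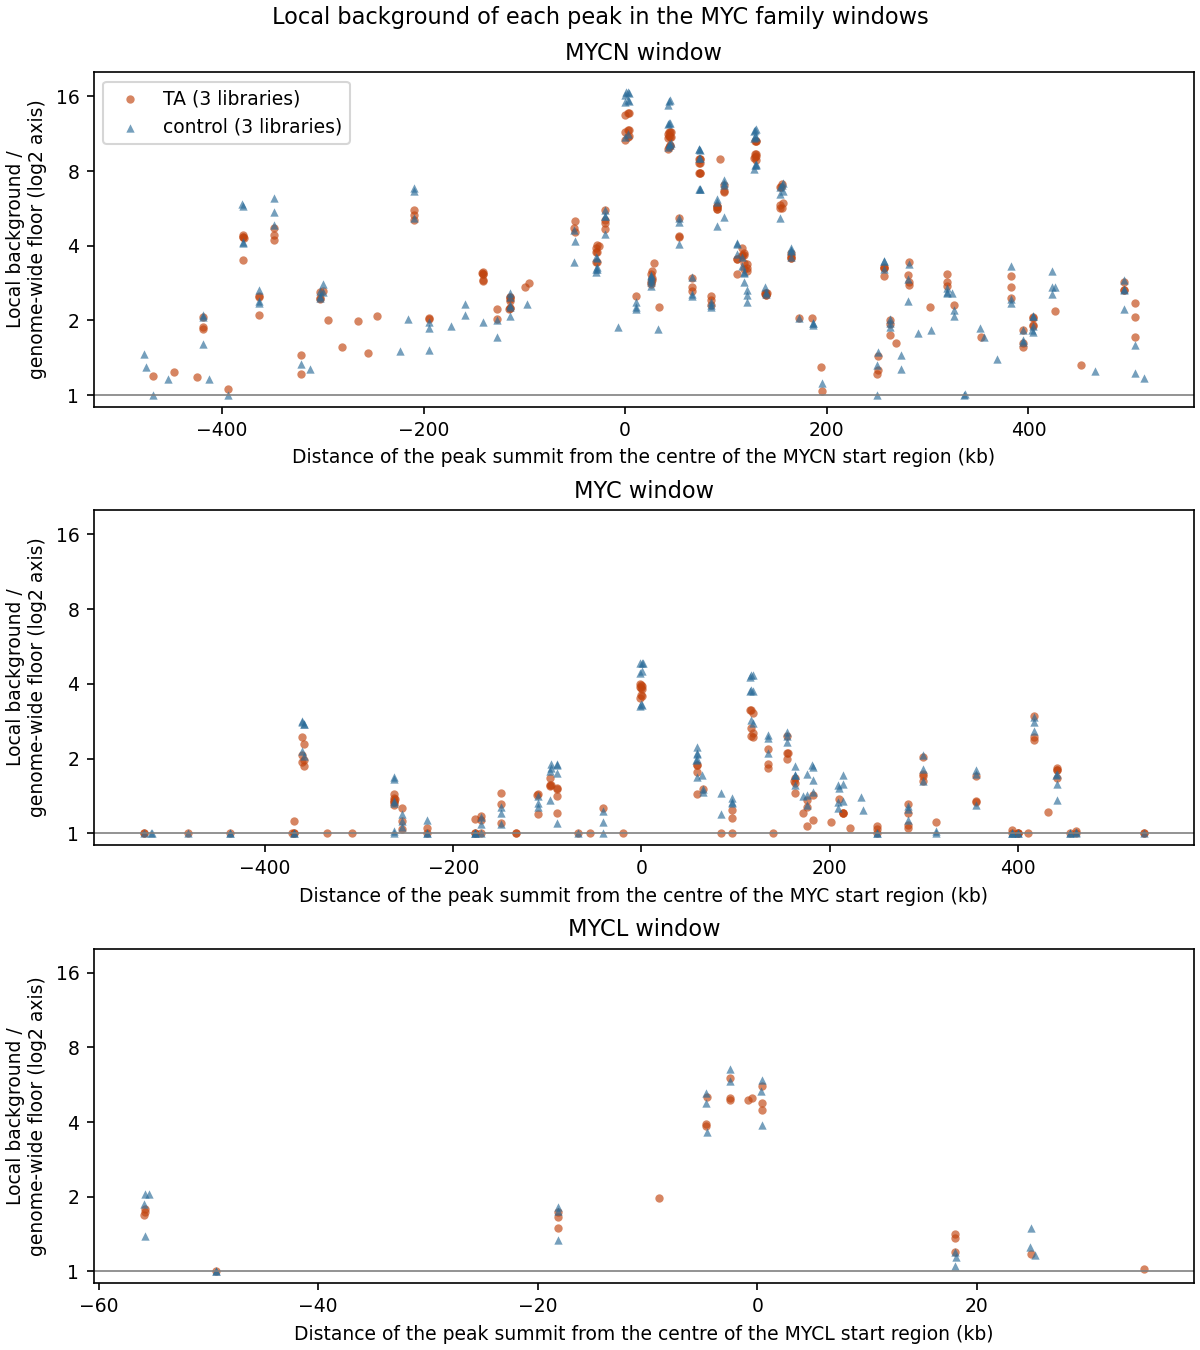
Local background of each peak in units of its library's floor (log2 axis) against the distance of its summit from the centre of the region at the gene's start, in kb, for the 3 windows. Circles are peaks of TA libraries and triangles peaks of control libraries. The tallest backgrounds lie at the MYCN start region and downstream of it, up to 16.7 floors, whereas the MYC and MYCL windows stay at or below 6.52.

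The highest local backgrounds of the MYCN window lay in its middle, in a stretch that was not set in advance. In the 50-kb bins from 16 to 16.25 Mb the median background ran from 3.43 to 9.49 floors over bins and libraries. The lowest background of any peak in these bins was 1.85 floors, so no peak of these bins lay at the floor in any library. The bin from 15.70 to 15.75 Mb, also inside the window, overlapped with these bins, with library medians from 3.52 to 5.77 floors. Peaks outside the window could be as high, since in the bin from 16.80 to 16.85 Mb the library medians ran from 5.49 to 7.40 floors and in that from 15.15 to 15.20 Mb from 3.79 to 8.23 floors. Over megabase tiles of chromosome 2, isolated peaks from 16 to 17 Mb stood at 1.97 times the library's isolated peaks, from 15 to 16 Mb at 1.44 times, from 14 to 15 Mb at 0.988 times and from 17 to 18 Mb at 1.305 times. Tiles elsewhere on the arm were also high, at 1.89 times from 10 to 11 Mb and 2.11 times from 27 to 28 Mb.

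Among tiles of the same length with enough peaks, the MYCN window lay near the top for background. Its isolated-peak ratio averaged 2.07 over the libraries, and 8 of 1798 tiles were higher, the tile median being 1.02 and the highest 2.24. Its ratio over all peaks averaged 1.80, with 56 of 1615 tiles higher, and its 10th percentile averaged 1.71 floors, with 8 of 1615 tiles higher. The MYC window was higher than 52.5% of 1738 tiles on isolated peaks, and the MYCL window than 48.7% of 7069 short tiles. MYCN was thus in the top part of these tiles but not the highest, and on isolated peaks the other loci were near the middle. More copies of a locus and denser open chromatin per copy cannot be told apart from peak lists alone, and copy number was not measured here.

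Between TA and control, the MYCN background ratio over all peaks was higher in each TA library than in any control library. It averaged 1.96 ± 0.101 in TA libraries and 1.63 ± 0.120 in control libraries (SD, n = 3 each). The exact permutation p was 0.1, the smallest possible, and 0.9 adjusted over 12 tests. Of 1615 tiles of that length, 8.73% also had all TA libraries above all control libraries, and 5.51% the reverse. Over isolated peaks the MYCN groups overlapped, at 2.11 ± 0.0646 in TA libraries and 2.02 ± 0.114 in control libraries (SD, n = 3 each, exact two-sided permutation p = 0.3). Over isolated peaks of the MYC window each TA library lay below each control library, at 0.983 ± 0.0205 in TA libraries and 1.05 ± 0.0193 in control libraries (SD, n = 3 each). The exact permutation p was 0.1 there, and of 1738 tiles 4.95% had that order and 3.91% the reverse. The 10th percentile overlapped too, at 1.85 ± 0.213 floors in TA libraries and 1.57 ± 0.115 in control libraries (SD, n = 3 each, exact two-sided permutation p = 0.2). In the MYC window the ratio over all peaks averaged 0.822 ± 0.0596 in TA libraries and 0.872 ± 0.0815 in control libraries, and in the MYCL window 1.54 ± 0.714 in TA libraries and 1.00 ± 0.205 in control libraries (SD, n = 3 each, exact two-sided permutation p = 0.5 and 0.3).

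Peaks of the MYCN window were tall, with a median fold somewhat below that of their library. Their median summit pileup was 53.5, 60 and 74 fragments in TA libraries, against 43, 57 and 61 in control libraries (exact permutation p = 0.5, n = 3 each), where the medians of all peaks were 33, 32 and 37 in TA libraries and 33, 32 and 39 in control libraries. Their median fold was 4.03, 4.70 and 4.25 in TA libraries, against 4.50, 4.57 and 4.98 in control libraries, below the library's own median in all 6. In the MYC window the order was the other way for pileup, with medians of 28, 28 and 32 in TA libraries and 28, 28 and 33 in control libraries. The median fold at MYC was 5.33, 5.71 and 5.23 in TA libraries, against 5.66, 5.38 and 6.10 in control libraries, near the library's median in each. The MYCL window had median pileups of 64, 70 and 68 in TA libraries, against 58, 44.5 and 72 in control libraries, and median folds of 6.26, 7.99 and 4.97 in TA libraries, against 6.39, 6.11 and 6.42 in control libraries.

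Ranked among the 56679 regions shared by all 6 libraries, the 39 shared regions at MYCN had a median percentile of 80.6 for pileup and 43.3 for fold. Of these 39, 30 were above the genome's median pileup and 14 in its top 10%, whereas 16 were above the median fold and 0 in its top 10%. The 26 shared regions at MYC had the reverse order, with a median percentile of 33.9 for pileup and 55.8 for fold. Of these, 10 were above the median pileup and 14 above the median fold. The 5 shared regions at MYCL had median percentiles of 64.98 for pileup and 76.5 for fold. Fold divides by the local background, so a region on a high background ranks lower by fold than by pileup.

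**Figure D3:**
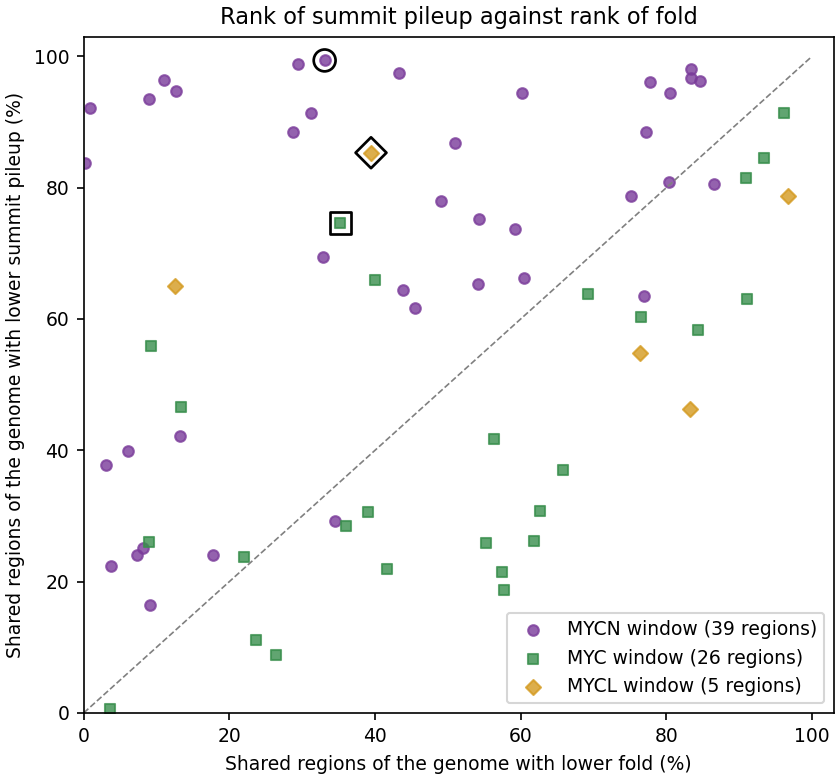
Percent of the 56679 shared regions of the genome with a lower mean summit pileup against the percent with a lower mean fold, for each shared region of the MYCN (39), MYC (26) and MYCL (5) windows. Outlined points are the regions at the gene starts and the dashed line marks equal ranks. Most MYCN regions lie above the line, with a median of 80.6 by pileup and 43.3 by fold.

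At the starts of the 3 genes a region was open in all 6 libraries. The MYCN start region, chr2:16079780-16081265, had summit pileups of 232, 232 and 216 in TA libraries, against 233, 191 and 330 in control libraries. It was the tallest shared region of its window, above 99.4% of shared regions of the genome, and its local background was 10.7 to 16.2 floors. Its fold was ordinary, at 6.13, 6.18 and 5.27 in TA libraries, against 5.92, 5.76 and 6.57 in control libraries, above 33.1% of shared regions. The promoter printed above for MYCN, of middling CG content, belongs to this region under the shift given for the window.

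The MYC start region, chr8:128747333-128748812, had pileups of 74, 61 and 94 in TA libraries, against 76, 66 and 106 in control libraries, above 74.7% of shared regions. Its folds were 6.03, 5.42 and 6.01 in TA libraries, against 6.18, 6.26 and 6.75 in control libraries, on a background of 3.31 to 4.87 floors. The MYCL start region, chr1:40366376-40368274, had pileups of 95, 129 and 128 in TA libraries, against 75, 81 and 105 in control libraries, above 85.3% of shared regions. Its folds were 6.26, 7.99 and 6.79 in TA libraries, against 5.26, 6.61 and 5.56 in control libraries, on a background of 3.88 to 5.92 floors. The CG-rich MYCL promoter shown above belongs to this region, the widest of the 3 start regions at 1899 bp, beside 1486 bp at MYCN and 1480 bp at MYC.

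Within libraries, the MYCN start region was 3.02 times as tall as that of MYC, with a range of 2.30 to 3.803 and in 6 of 6 libraries (exact sign-flip p = 0.03125, adjusted 0.046875 over 3 pairs). It was 2.36 times as tall as that of MYCL, with a range of 1.69 to 3.14 and in 6 of 6 libraries (exact sign-flip p = 0.03125, adjusted 0.046875). The MYCL start region was 1.28 times as tall as that of MYC, in 4 of 6 libraries (exact sign-flip p = 0.125). By fold the start regions lay close together, with mean ratios of 0.978 for MYCN over MYC, 0.938 for MYCN over MYCL and 1.04 for MYCL over MYC. The order of the loci by height was thus MYCN first, with MYCL and MYC not separated beyond their spread.

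**Figure D4:**
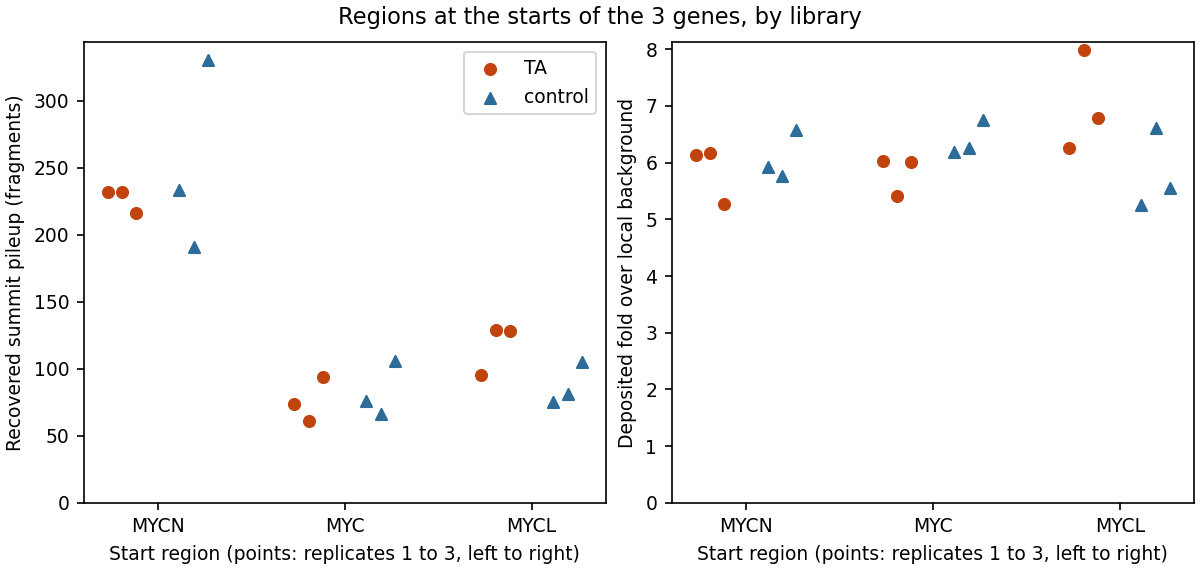
Recovered summit pileup in fragments (left) and deposited fold over local background (right) of the regions at the starts of MYCN, MYC and MYCL. Each point is a library, circles TA and triangles control. MYCN reaches 191 to 330 fragments and the other loci 61 to 129, whereas the folds of all 3 run from 5.26 to 7.99.

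Pileups of shared regions were then compared between TA and control with limma on log2 values, each library centred on its median shared pileup, with Benjamini-Hochberg adjustment over all 56679 shared regions. Of all of them, 737 were higher in TA libraries at an adjusted p under 0.05 (1.3%) and 684 lower (1.21%). In the MYCN window 1 of 39 was higher and 0 lower, in the MYC window 0 of 26 in either direction, and in the MYCL window 0 of 5. The MYC family counts were close to these background shares. At an unadjusted p under 0.05, limma had 4 of 39 regions at MYCN, 5 of 26 at MYC and 2 of 5 at MYCL, beside 14.99% of all regions. The median log2 difference was 0.04 at MYCN, with a range of -0.23 to 0.43, -0.06 at MYC, with a range of -0.58 to 0.54, and 0.18 at MYCL, beside -0.01 over all regions.

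The MYCN start region did not pass the test (log2 TA over control -0.09, SE 0.09, limma adjusted p = 0.73), and neither did that of MYC (-0.08, SE 0.15, limma adjusted p = 0.863). The MYCL start region had the largest difference of the 3, with a log2 of 0.46 (SE 0.14), and missed the threshold at a limma adjusted p of 0.0521. It passed without TA library 1 (limma adjusted p = 0.0345) and without control library 2 (limma adjusted p = 0.0222). It did not pass without TA library 2, TA library 3, control library 1 or control library 3. The lowest limma adjusted p of any MYCL region was then 0.22, 0.117, 0.171 and 0.0997. With the floor as the scale the log2 of the start region was 0.25 (limma adjusted p = 0.77). Relative to the library's median it stood at 1.98, 2.69 and 2.29 in TA libraries, against 1.47, 1.98 and 1.62 in control libraries. By fold its groups overlapped.

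The region that passed was chr2:16029653-16030727, at -50.3 kb from the centre of the MYCN start region. It had pileups of 137, 159 and 191 in TA libraries, against 132, 95 and 144 in control libraries. Relative to the library's median these were 2.85, 3.31 and 3.41 in TA libraries, against 2.59, 2.32 and 2.22 in control libraries, so the groups did not overlap on that scale. The log2 difference was 0.43 (SE 0.12, limma adjusted p = 0.0237). By fold the region overlapped between groups, at 8.87, 10.8 and 10.2 in TA libraries, against 10.5, 8.66 and 10.6 in control libraries. The call was lost with the pileups scaled by the floor in place of the median (log2 0.22, limma adjusted p = 0.791) and with fold in place of pileup (log2 0.12, limma adjusted p = 0.773). It was also lost without TA library 2, TA library 3, control library 2 or control library 3, at limma adjusted p of 0.119, 0.129, 0.0616 and 0.133. Without control library 2 another region passed, chr2:16586197-16586841, which has no peak in that library and was chosen after its values were seen. Pileups there were 40, 34 and 80 in TA libraries, against 17 and 28 in control libraries 1 and 3 (log2 1.32, SE 0.26, limma adjusted p = 0.00128). Scaling by the floor moved the median of all 56679 regions to -0.21 and left 7 higher and 69 lower, so that 9.21% of calls were higher, against 51.9% as reported.

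**Figure D5:**
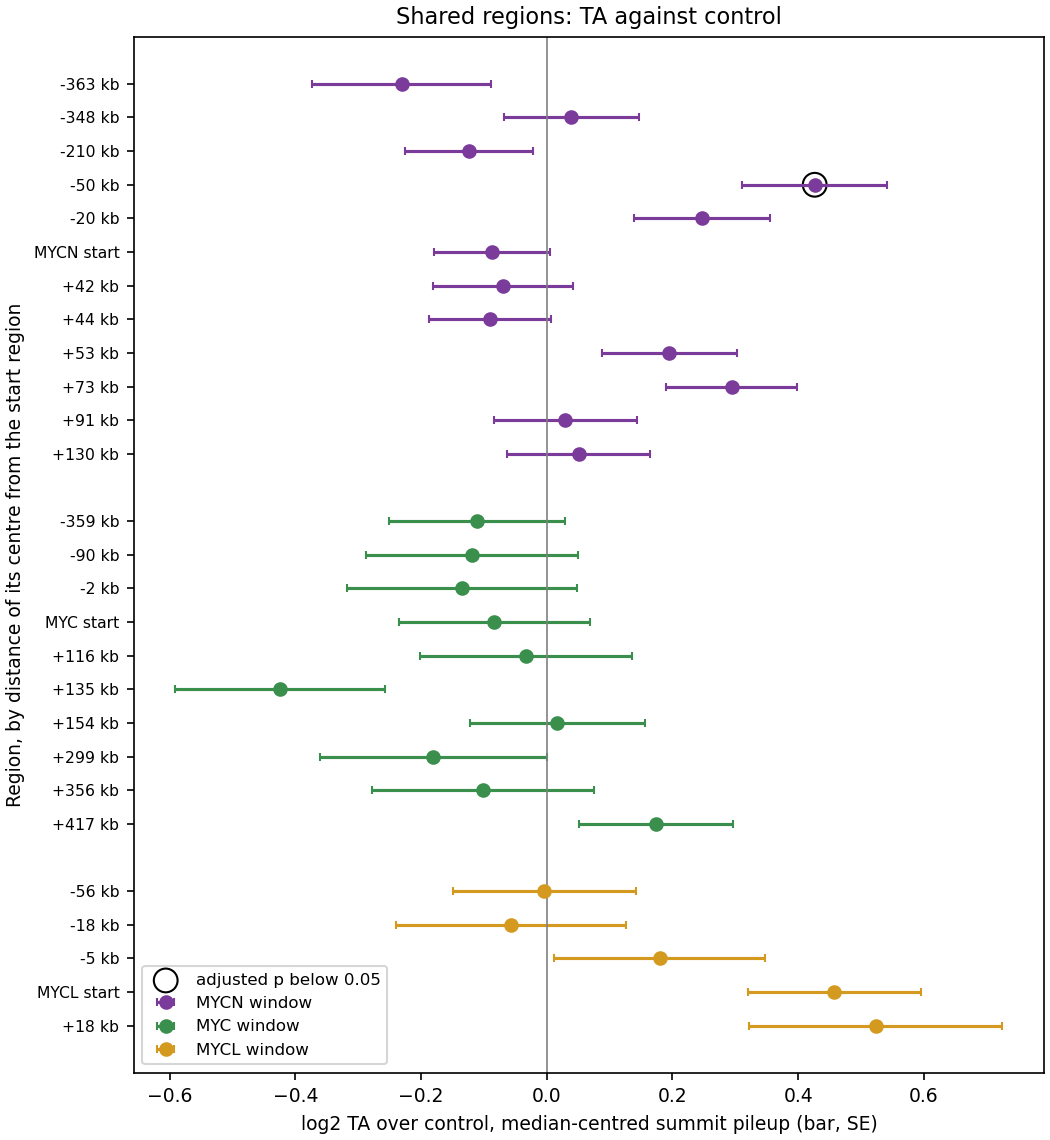
Log2 difference of median-centred summit pileup, TA over control, with SE bars, for the named shared regions of the 3 windows, ordered by distance from the gene's start region in kb. The circled point is the region past an adjusted p of 0.05. The MYCN and MYC start regions lie near 0, at -0.09 and -0.08, and the MYCL start region at 0.46.

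By fold, 2.63% of shared regions had all TA libraries above all control libraries and 10.1% the reverse. The MYCN window had 1 and 3 such regions of 39, the MYC window 0 and 3 of 26, and the MYCL window 0 and 1 of 5. With so few regions these counts do not set a window apart from the series.

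Around MYCN the tallest shared regions fell into those on a very high background near the gene and those on a moderate one. The regions chr2:16122206-16123133 and chr2:16124257-16125132, 42.1 and 44.2 kb past the start region, stood on 9.78 to 15.4 floors. The first had pileups of 149, 137 and 177 in TA libraries, against 134, 135 and 243 in control libraries, and folds of 4.18 to 5.28. The second had pileups of 176, 180 and 246 in TA libraries, against 219, 161 and 281 in control libraries. Both had their highest pileup in control library 3, which also had the longest peak list. The region chr2:16209766-16211044, 130 kb past the start region, was of the same kind, with pileups of 123, 149 and 161 in TA libraries, against 139, 119 and 169 in control libraries, on 8.51 to 11.8 floors.

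The broadest named region, chr2:16152619-16155106 with 2488 bp, had pileups of 179, 198 and 195 in TA libraries, against 168, 123 and 191 in control libraries. Its log2 difference was 0.29 (SE 0.10) and did not pass (limma adjusted p = 0.116). The region matched to the start of MYCNUT, a long noncoding RNA upstream of MYCN, was chr2:16059731-16061054. It had pileups of 173, 147 and 185 in TA libraries, against 140, 119 and 178 in control libraries (log2 0.25, limma adjusted p = 0.249). Both leaned towards TA without passing the test, and both overlapped between the groups in raw pileup. A further pair of regions downstream, chr2:16133030-16134174 and chr2:16170960-16172281, had pileups of 119 to 188 and 114 to 178 over the 6 libraries.

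The region matched to the start of DDX1, an RNA helicase gene often gained together with MYCN in neuroblastoma, was chr2:15731547-15732595. It had pileups of 152, 143 and 202 in TA libraries, against 145, 140 and 210 in control libraries, with folds of 9.29 to 10.99. The region chr2:15870130-15871511 had pileups of 179, 147 and 214 in TA libraries, against 193, 165 and 241 in control libraries, and folds of 9.09 to 11.1. The highest mean fold of the window was at chr2:15717123-15717750, at 8.05, 10.6 and 10.3 in TA libraries, against 14.6, 8.56 and 14.9 in control libraries. TA libraries and control library 2 lay together there, below control libraries 1 and 3. Its background was 2.11 to 2.64 floors, a fraction of that at the MYCN start. Regions at the ends matched to NBAS and to the long noncoding RNA GACAT3 were open in all 6 libraries as well.

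In the MYC window the strongest region lay far from the gene. It was chr8:129164974-129165946, 417 kb past the MYC start region, with pileups of 121, 131 and 132 in TA libraries, against 105, 100 and 146 in control libraries. Its folds were 14.2, 14.4 and 13.0 in TA libraries, against 13.1, 11.8 and 14.8 in control libraries, higher than in 96.2% of shared regions, on a background of 2.37 to 2.97 floors. It was taller than the MYC start region in each library and did not pass the test between groups (log2 0.17, SE 0.12, limma adjusted p = 0.544). The next, chr8:128901953-128902875, had pileups of 85, 112 and 98 in TA libraries, against 101, 87 and 108 in control libraries. The region chr8:128388747-128389574, at -359 kb, had pileups of 89, 76 and 96 in TA libraries, against 91, 79 and 120 in control libraries.

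The largest difference among the shared regions of the MYC window, and the lowest adjusted p among them, was at chr8:128866166-128867002, 119 kb past the start region, which was chosen after its values were seen. Its pileups were 38, 35 and 43 in TA libraries, against 53, 44 and 86 in control libraries. Relative to the library's median it stood at 0.792, 0.729 and 0.768 in TA libraries, against 1.04, 1.07 and 1.32 in control libraries. The groups did not overlap on either scale, and the log2 difference of -0.58 (SE 0.19) missed the threshold (limma adjusted p = 0.0881). The largest difference the other way, also chosen after its values were seen, was at chr8:128571467-128572079, with pileups of 30, 40 and 39 in TA libraries, against 26, 17 and 36 in control libraries. Its log2 of 0.54 (SE 0.24) did not pass either (limma adjusted p = 0.238).

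Among the regions named by pileup or fold, the largest MYC difference was at chr8:128882436-128883425, 135 kb past the start region. It had pileups of 49, 55 and 59 in TA libraries, against 75, 62 and 87 in control libraries. Each TA library was below each control library there, and the log2 difference of -0.42 (SE 0.17) did not pass the test (limma adjusted p = 0.176). The region matched to an end of CASC11, a long noncoding RNA beside MYC, was chr8:128746293-128746621, with pileups of 41, 48 and 73 in TA libraries, against 65, 40 and 77 in control libraries. It stood on up to 4.85 floors next to the MYC start region and had folds of 3.44 to 5.42. The remaining named regions, chr8:128658023-128658853, chr8:128863722-128864841, chr8:129047253-129047843 and chr8:129103234-129103941, had pileups of 42 to 93 over all libraries and log2 differences of -0.18 to -0.03. Regions matched to the start of the long noncoding RNA PVT1 and to an end of CASC8 were open in all 6 libraries. Of the noncoding RNA genes CCAT1 and CCAT2, 1 matched end each was open in 3 libraries and in 1 library.

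The MYCL window, which holds the genes TRIT1 and MYCL, had 5 shared regions. The farthest from the gene, chr1:40311150-40312057 at -55.7 kb, had the highest fold, at 12.8, 14.9 and 11.4 in TA libraries, against 16.4, 11.96 and 15.9 in control libraries. Its pileups were 83, 87 and 83 in TA libraries, against 93, 60 and 114 in control libraries. The region shared by the ends of TRIT1, a tRNA-modifying enzyme gene, and of the antisense RNA MYCL-AS1 was chr1:40348700-40349580, with pileups of 53, 40 and 70 in TA libraries, against 52, 47 and 72 in control libraries. These 2 regions had the smallest log2 differences of the window, -0.0036 and -0.06, and neither passed the test.

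Nearer to MYCL, chr1:40362501-40362935 had pileups of 69, 70 and 66 in TA libraries, against 64, 42 and 86 in control libraries. The region chr1:40385020-40385602, 18.0 kb on the other side of the start region, had pileups of 50, 50 and 71 in TA libraries, against 44, 22 and 65 in control libraries. Its log2 difference of 0.52 (SE 0.20) did not pass the test (limma adjusted p = 0.161), and control library 2, with the shortest peak list, was the lowest. Between the start region and chr1:40362501-40362935 lay chr1:40364653-40365029, matched to an end of MYCL-AS1 and open in 5 libraries, which is described here after its values were seen. Its pileups were 64, 77 and 96 in TA libraries, against 116 and 157 in control libraries 1 and 3, and no peak in control library 2. Its TA pileups were thus below both control pileups, while the log2 differences of the shared regions on either side of it were positive. It was not tested as a shared region, and it could enter the fit only without control library 2, where its log2 was -0.61 (SE 0.15). That fit leaves out the control library that goes against the difference, so no conclusion is drawn from it.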

How the data were processed

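ATAC-seq peaks of 3 TA and 3 control libraries of H1155 cells were used as deposited by the authors, 1 narrowPeak list per library, made with MACS2 per the file names. The fold column is the authors' ratio of summit signal to local background, and the −log10 p and −log10 q columns are the authors' deposited values. For the aligner, read filters and MACS2 settings no version or value is given in the sources used here. HOMER 4.9 and GRCh38 appear in the submitters' processing notes, with no role. Lists were used on 23 chromosomes, which left out 0.0168% of peaks.

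Each peak's fold and −log10 p were solved for a whole summit pileup and a local background with the Poisson tail that MACS2 uses (tolerance 0.005 in −log10 p), which succeeded for more than 99.9% of the peaks of every library. No read totals were used, so the depth is known only through the background floor. Peaks sharing 1 bp were merged into regions. A gained region had a peak in 3 of 3 TA and 0 of 3 control libraries, and a lost one the reverse. Window values were compared between groups by exact two-sided permutation of libraries, and between windows by exact sign flips over the 6 libraries. The background floor ratio was not tested against the library, since it cannot lie below 1. Shared regions were tested with limma 3.58.1 (trend and robust options, R 4.3.3) on log2 pileup. The recovery of pileups and the limma fit were tested on simulated data. There the limma fit missed most of the changes put in. The simulated spread was fixed and not estimated from these libraries, so the share missed cannot be carried over to them. A region that did not pass may still differ. Other steps used Python 3.11.15 with numpy 2.4.6, pandas 2.3.3 and scipy 1.17.1. Tiles are fixed stretches of the window's length with at least 20 peaks (5 for MYCL), or 10 isolated peaks (2 for MYCL), in each library.

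Named regions are, at MYCN and MYC, the 10 shared regions with the highest mean log2 pileup and the 5 with the highest mean fold, at MYCL every shared region, and each gained, lost or called region. The windows, members and lists were chosen with earlier results of these data known. The MYC network and cell type marker lists need an annotation on the lists' coordinates and were not analysed here. Alternatives covered the −log10 q limit, list length, the central part of each window, isolated peaks, merging, scaling, a replicate block and leaving out each library.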

Additional observations from a re-analysis of the deposited data

How the results depend on the processing

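Of 391 alternative values for the main comparisons, 291 were classed as unchanged and 18 as reversed, and the rest as moved, stronger or weaker. The values include counts of regions, for which direction and side of the threshold do not apply. Permutation of 3 against 3 libraries cannot give a p below 0.1, so those values could not change their side of the threshold. The number unchanged is thus no measure of how firm the results are. The raised background at MYCN over the library kept its direction under each alternative run. It was 2.06-fold on isolated peaks, 1.91-fold with a −log10 q of at least 10 and 2.26-fold in the central part of the window. Relative to the floor it was 3.02-fold, but a ratio to the floor cannot lie below 1, so that setting could not turn the direction. For MYC these values were 1.014-fold, 0.765-fold, 0.864-fold and 1.42-fold, so that isolated peaks and the floor turned the direction; the last follows from the floor being the lowest background of a library. For MYCL they were 1.18-fold on isolated peaks, 2.36-fold in the central part and 2.01-fold relative to the floor. MYCN over MYC was 2.03-fold, 2.497-fold and 2.62-fold in the first 3 of these settings, each past the threshold. Relative to the floor it was 2.12-fold, the same value as reported, because a library's scale cancels between windows. That setting thus adds no separate result for this pair. MYCN over MYCL was 1.75-fold, 1.43-fold and 0.958-fold in the first 3, and thus turned in the central part, for which the cause was not tested. MYCL over MYC was 1.75-fold with the stricter q and 2.73-fold in the central part. With the lowest background of a window in place of the 10th percentile, MYCN over MYC was 1.07-fold, MYCN over MYCL 0.972-fold and MYCL over MYC 1.10-fold, none past the threshold, and on isolated peaks the 10th percentile of MYCN over MYCL was 1.20-fold and no longer passed. Leaving out 1 library each gave 1.65 to 1.75-fold, 1.31 to 1.49-fold and 1.16 to 1.26-fold for the 10th percentile of MYCN over MYC, MYCN over MYCL and MYCL over MYC, where 5 libraries cannot give an exact p below 0.0625.

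Differences in density and coverage between TA and control, none of which passed, turned sign in places, and the cause was not tested. MYC peaks per 10000 differed by -0.111 and -0.0510 with a −log10 q of at least 5 and 10, by -0.156 in lists of equal length and by -0.126 in the central part, against 0.0570 as reported. The MYC 10th percentile differed by -0.0428 with the stricter q and by -0.0687 floors in the central part. Covered share differed in the central part by 0.133 points at MYCN and 0.104 points at MYCL. Without 1 library, peaks per 10000 differed by -0.214 to 0.379 at MYCN and -0.0470 to 0.101 at MYCL, and covered share by -0.335 to 0.1005 points at MYCN, -0.376 to 0.0237 at MYC and -0.830 to 0.00405 at MYCL.

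The labels give replicate numbers and do not say whether these pair the samples. Same-numbered libraries had correlations of 0.00481, -0.0113 and 0.0173 of their deviations from the group means, so no shared deviation was seen. With a replicate block (at least 2 of 3 numbers changed the same way and none the other way), the MYCN window had 3 gained and 4 lost regions, the MYC window 1 and 3, and the MYCL window 1 lost. Under that looser rule 4.24% of all 149765 regions were gained and 5.56% lost, beside 4 and 8 of the 197 regions of the windows. A replicate block in limma gave 1 higher region at MYCL, its start region (limma adjusted p = 0.0431). With peaks that cover 50% of a region, MYCN had 1 gained region, where 0.771% of all regions were gained. The MYC window had 0 lost regions with that rule, with a −log10 q of at least 5 and with peaks up to 1 kb apart merged. Without 1 library there were 0 to 2 gained and 1 to 2 lost regions at MYCN, 0 to 1 and 1 to 2 at MYC, and 0 to 1 lost at MYCL. Scaling by the floor and using fold gave 0 higher regions at MYCN. Over all regions limma had 7 higher and 69 lower with the floor, 0 and 0 with fold (6378 at an unadjusted p under 0.05), and 358 and 346 with a −log10 q of at least 10. Without 1 library it had 373 to 795 higher and 243 to 431 lower, with 0 to 1 higher at MYCN and MYCL and 0 to 1 lower at MYCL, not always the same region, since without control library 2 the MYCN call moved to chr2:16586197-16586841. The log2 difference of the MYCN start region was 0.052 by fold and -0.138 to 0.0345 without 1 library, turning without TA library 3. That of the MYC start region was -0.157 to 0.0335, turning without TA library 2. Depth is known only through the background floor, and a region without a peak may still hold signal.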
